A study of Mus musculus with 12 samples.

Results

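The carbonic anhydrase genes of the mouse colon epithelium are described here: Car1, Car2, Car3, Car4, Car7, Car8, Car9, Car12, Car13 and Car14. They were taken by symbol, whatever their level, and are 10 of the 24391 genes in the deposited expression files. RNA was sequenced from colon epithelial cells of C57BL/6 mice aged 18 weeks, in 12 libraries of 3 groups of 4. The control group is labelled only as control. The second group was induced with AOM (azoxymethane, a colon carcinogen) and DSS (dextran sulfate sodium, which injures the colon epithelium). The curcumin group had AOM, DSS and curcumin, a plant polyphenol, and no group had curcumin alone. Doses and times of the 3 agents are not given in the sources used here. The proximal colon and the tumours of the right side were taken out before the remaining mucosa was scraped, so the libraries describe scraped mucosa and not excised tumours. The labels do not say whether the libraries of a group came from separate mice, so the p-values measure the spread between these samples, which may be technical.

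Carbonic anhydrases are zinc enzymes that interconvert carbon dioxide and water with bicarbonate and a proton. In the colon they supply the ions that apical exchangers trade for chloride and sodium, a step in the absorption of salt and water by the surface epithelium. Car1, Car2, Car3, Car7 and Car13 are cytosolic enzymes. Car4 is held at the cell surface by a lipid anchor, and Car9, Car12 and Car14 span the membrane with the catalytic domain outside. Car8 lacks catalytic activity. In the RefSeq annotation of GRCm38.p6, Car13, Car1, Car3 and Car2 lie in that order on chromosome 3, with only 2 pseudogenes (Gm5843 and Gm16399) and the long noncoding RNA Gm41999 between them. The files use build mm9, so no coordinates of these genes are given.

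The 250 bases before the transcription start are shown for Car4, the surface enzyme that differed between groups, and for Car9 and Car12, a pair of transmembrane enzymes known as targets of the hypoxia-inducible factor HIF. All come from RefSeq with GRCm38.p6 coordinates, are on the plus strand and end at the base before the start. Capitals mark a match to any of 5 short motifs, searched on both strands.
Car4, chr11:84957504-84957753: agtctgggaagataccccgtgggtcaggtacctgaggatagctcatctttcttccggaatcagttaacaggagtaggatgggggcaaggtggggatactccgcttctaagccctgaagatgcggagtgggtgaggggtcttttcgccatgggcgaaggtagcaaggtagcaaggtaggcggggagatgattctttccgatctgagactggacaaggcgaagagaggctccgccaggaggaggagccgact
Car9, chr4:43506776-43507025: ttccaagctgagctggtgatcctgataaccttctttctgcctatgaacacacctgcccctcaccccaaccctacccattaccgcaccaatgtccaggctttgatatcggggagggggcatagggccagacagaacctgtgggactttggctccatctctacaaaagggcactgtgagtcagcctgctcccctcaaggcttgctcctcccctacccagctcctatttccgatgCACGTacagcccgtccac
Car12, chr9:66713436-66713685: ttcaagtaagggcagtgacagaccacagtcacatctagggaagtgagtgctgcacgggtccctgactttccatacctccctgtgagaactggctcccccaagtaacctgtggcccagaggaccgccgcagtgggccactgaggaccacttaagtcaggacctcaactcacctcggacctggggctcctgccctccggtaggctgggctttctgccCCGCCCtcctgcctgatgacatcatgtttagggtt
The motifs were ACGTG (the core bound by HIF), AGATAA (bound by GATA factors), TTTATG (bound by CDX factors), TATAAA (the TATA box) and GGGCGG (the GC box). The Car9 window held the HIF core once, on the minus strand and 14 bases before the start. The core is in 16.6% of the 32851 mouse promoter windows of that length. Car12 held 1 GC box, 30 bases before the start, a motif found in 32.7% of windows. The Car4 window held none of the 5 sets of letters. The share of windows was 9.99% for AGATAA, 10.8% for TTTATG and 12.4% for TATAAA. Of the other members, RefSeq starts were matched for Car7 and Car14, and Car14 held the HIF core 3 bases before its start. Of the 3 Car7 starts, start 2 held AGATAA 1 time and GGGCGG 3 times, start 3 held GGGCGG 1 time and start 1 held no motif.

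Libraries held 5567988 to 15968416 reads assigned to genes, recovered from the steps of the FPKM values (fragment counts scaled to transcript length and a factor per library). In all 12 libraries that factor matched the median over genes of the library's reads relative to the geometric mean of all libraries. The epithelial label was met by the surface colonocyte markers, 12 of 13 of which were measured, with a summed level of 7066 to 14806 FPKM in every library, and by the goblet cell markers at 4419 to 8838 FPKM. Much of the colonocyte sum came from 1 gene, Lypd8, at 4111 to 7262 FPKM, while Guca2b stood at 13.0 to 32.9. The libraries fell into GC-rich and AT-rich sets by how their values tracked the GC content of genes. The 5 GC-rich libraries were replicate 0 of every group and replicate 1 of AOM/DSS and of curcumin, and the other 7 were AT-rich. AOM/DSS replicate 3 had the lowest sum of the distal colon Hox genes, 185 FPKM against 328 to 507 in the other 11 libraries. The red blood cell list summed to 474 FPKM in control replicate 1 and 464 in AOM/DSS replicate 1, the highest of a range that began at 23.1.

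Most of the carbonic anhydrase RNA came from 3 genes. Car1, Car2 and Car4 together made up 94.5% to 97.9% of the summed FPKM of the members in each library. By the mean FPKM over the 12 libraries, which is a level per transcript length, the order was Car1 (1329), Car4 (919.9), Car2 (761), Car9 (52.0), Car13 (15.9), Car12 (11.6), Car14 (3.59), Car8 (1.60), Car3 (0.706) and Car7 (0.364). The ranges of Car1, Car4 and Car2 overlapped, and Car1 was the highest member in 8 libraries, Car4 in 3 and Car2 in 1. Car13 and Car12 overlapped as well, at 10.2 to 23.9 and 3.58 to 22.5 FPKM. Car9 stood clear of its neighbours in the order, at 37.5 to 65.8 FPKM.

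**Figure D1:**
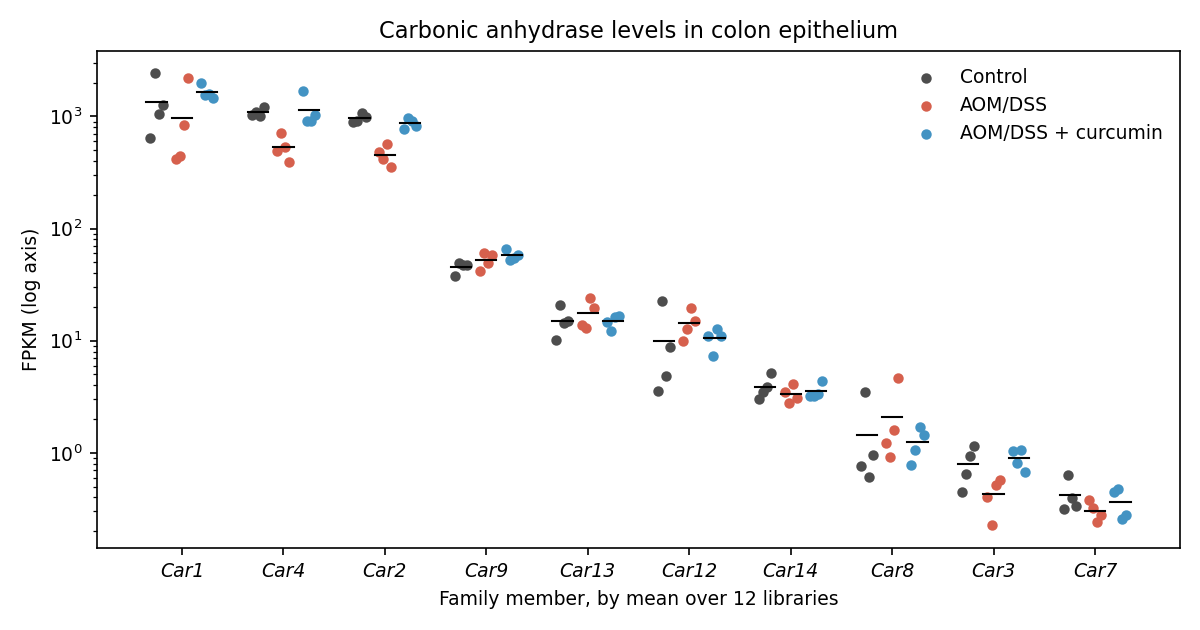
Level of each member in FPKM on a log axis, ordered by the mean over the 12 libraries; points are libraries coloured by group and short lines are group means. Car1, Car4 and Car2 stood at 355 FPKM or more in every library, Car9 between 37.5 and 65.8, and Car7 below 0.64.

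No member shared a stretch of 36 bases, the length used for this check, with another member's transcripts in the GENCODE annotation. In that annotation, exons of Car14 overlapped those of Aph1a on the opposite strand over 17.5% of their bases, and exons of Car9 overlapped Gm12454 over 9.29%. The strand setting of the counting is not given in the sources used here, so reads of those overlaps may belong to either gene.

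Car2 and Car4 were lower in the AOM/DSS group. Car2, the fast and widely expressed cytosolic enzyme, measured 894, 912, 1062 and 979.6 FPKM in control replicates 0 to 3. In AOM/DSS it measured 486, 417, 563 and 355 FPKM, so that every AOM/DSS library lay below every control library. Car4, whose active site faces the gut lumen, measured 1037, 1098, 1013 and 1207 FPKM in controls. In AOM/DSS its values were 492, 706, 536 and 394 FPKM, again with no overlap. In bulk samples, fewer cells of a type and less RNA per cell cannot be told apart.

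The group means of Car2 were 962 ± 76.3 FPKM in controls and 455 ± 89.8 in AOM/DSS (SD, n = 4 each), a level 2.11-fold lower. On the log2(FPKM + 1) scale it fell by 1.09 (SE 0.15, 95% interval -1.42 to -0.76, limma adjusted p = 0.00433). Car4 averaged 1089 ± 86.5 FPKM in controls and 532 ± 130.4 in AOM/DSS, 2.05-fold lower. Its log2 difference was -1.06 (SE 0.22, 95% interval -1.53 to -0.59, limma adjusted p = 0.0358). These were 2 of the 8 members that passed the filter on low values, 1 FPKM in at least 4 libraries. With limma and with limma voom 0 members were called higher. Among all 12052 genes tested, 1.27% were past an adjusted p of 0.05, 0.813% lower and 0.456% higher. Non-overlapping groups, seen here for the same pair of members, were found in 6.02% of tested genes, 3.63% with AOM/DSS lower and 2.38% with it higher. The median log2 difference was 0.02 over the 8 tested members and 0.02 over all tested genes.

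The call on Car4 was less stable than that on Car2. Without the filter on low values the limma adjusted p of Car4 was 0.0851. Car2 stayed past the threshold without any 1 of the 12 libraries, at limma adjusted p of 0.00486 to 0.0225. Car4 lost the call in 9 of those 12 fits, with its log2 difference between -1.21 and -0.93 over all 12. The limma adjusted p of Car4 was 0.0697, 0.0656, 0.0598 and 0.134 without control replicates 0, 1, 2 and 3 in turn. It was 0.0968, 0.0534 and 0.0959 without AOM/DSS replicates 0, 2 and 3, and 0.0515 and 0.0557 without curcumin replicates 2 and 3, which enter the shared estimate of spread. Within the GC-rich libraries the log2 difference was -0.99 for Car2 and -0.81 for Car4, with 1 control library, and within the AT-rich it was -1.13 and -1.26. Neither gene passed in either set alone, where limma adjusted p was 0.102 to 0.692.

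**Figure D2:**
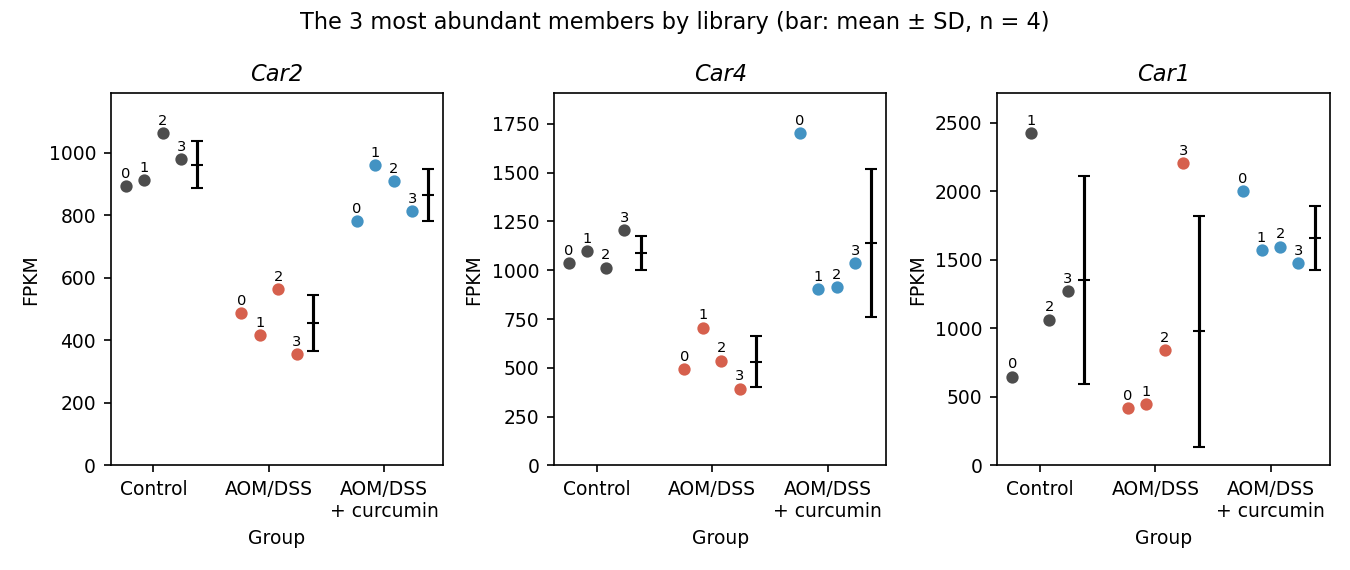
FPKM of Car2, Car4 and Car1 in each library, numbered by replicate, with the group mean ± SD (n = 4) beside the points on axes that start at 0. All 4 AOM/DSS values of Car2 (355 to 563) and of Car4 (394 to 706) lie below the other groups, while Car1 spreads from 419 to 2204 within AOM/DSS.

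In the curcumin group, Car2 and Car4 were higher than in AOM/DSS. Car2 measured 780.1, 961, 908 and 814 FPKM in curcumin replicates 0 to 3. Car4 measured 1702, 903, 915 and 1037 FPKM. All 4 values of each gene lay above all 4 of AOM/DSS, and curcumin replicate 0 was high for Car4 and the lowest of its group for Car2. This comparison uses the same AOM/DSS libraries as the one above, so the pair of differences is not independent.

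Car2 averaged 866 ± 83.5 FPKM with curcumin (SD, n = 4), 1.90-fold its AOM/DSS level. It rose by 0.94 on the log2 scale (SE 0.15, 95% interval 0.61 to 1.27, limma adjusted p = 0.0126). Car4 averaged 1139 ± 379.9 FPKM, 2.14-fold its AOM/DSS level, with a log2 difference of 1.08 (SE 0.22, 95% interval 0.61 to 1.55, limma adjusted p = 0.0317). They were again 2 of 8 tested members, where 1.08% of all tested genes passed, 0.73% higher and 0.348% lower. Non-overlap was found in 9.22% of tested genes, 4.95% with curcumin above and 4.27% with it below. The median log2 difference of the tested members was 0.10, and of all tested genes -0.01.

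Car2 kept this call without any 1 library, at limma adjusted p of 0.00835 to 0.0493. The limma adjusted p of Car4 was 0.0822 without the filter on low values and 0.0863 when only the groups compared were fitted. Car4 lost its call in 7 of 12 fits that left out 1 library, with a log2 difference of 0.87 to 1.22 over the 12. Without AOM/DSS replicates 0, 2 and 3 its limma adjusted p was 0.0745, 0.0621 and 0.0823. Without curcumin replicates 0, 1, 2 and 3 it was 0.0622, 0.0556, 0.0634 and 0.0728. The GC-rich libraries alone gave log2 differences of 0.94 for Car2 and 1.07 for Car4, and the AT-rich alone gave 0.94 and 1.08. No call was made within either set, at limma adjusted p of 0.228 to 0.362.

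Against controls, the curcumin group showed 0 members past the threshold with limma and with limma voom on the recovered reads, and 1 member, Car9, had an unadjusted p under 0.05. Of all tested genes, 0.141% passed in this comparison, 0.0913% higher and 0.0498% lower, and 1468 had an unadjusted p under 0.05. The log2 difference of Car2 was -0.15 (95% interval -0.48 to 0.18) and that of Car4 was 0.02 (95% interval -0.45 to 0.49). Those intervals do not show equal levels: for Car4 they allow a change of almost 0.5 on the log2 scale either way. The median over the 8 tested members was 0.02, and over all tested genes 0.01.

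**Figure D3:**
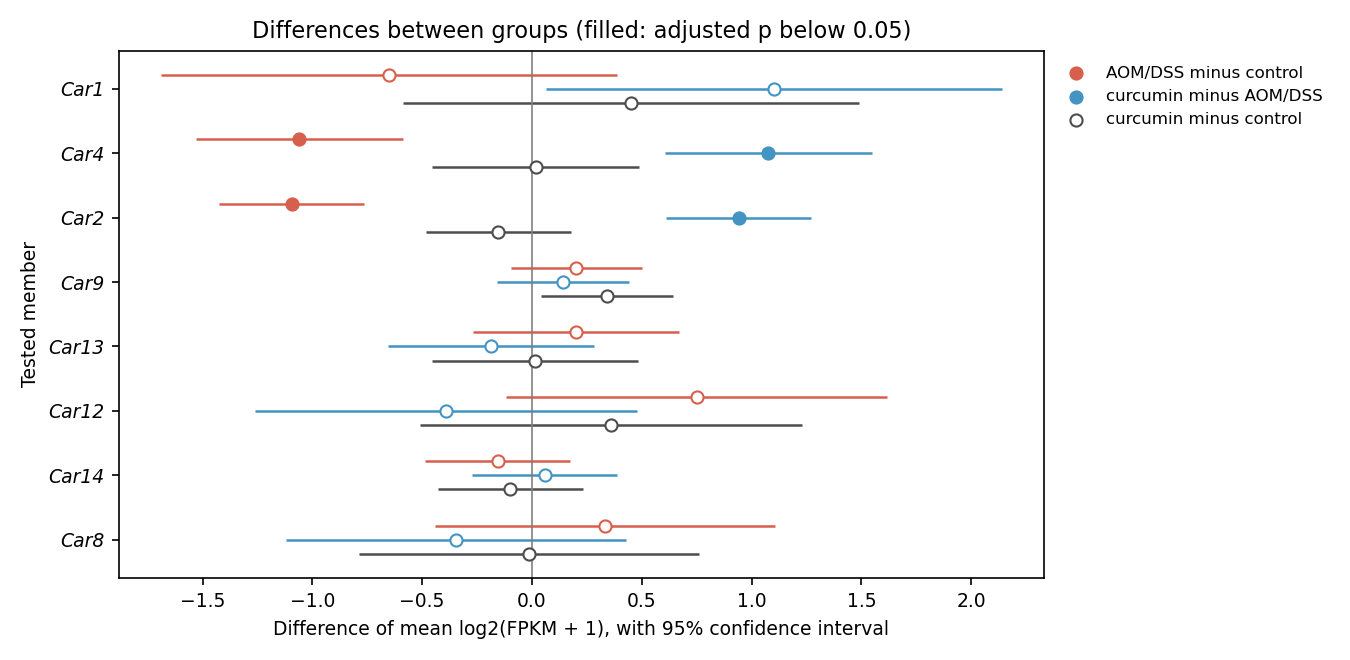
Difference of mean log2(FPKM + 1) for the 8 tested members in the 3 comparisons, with 95% confidence intervals; filled points are past the threshold of adjusted p 0.05. Only Car2 and Car4 are filled, at -1.09 and -1.06 when controls are subtracted from AOM/DSS and at 0.94 and 1.08 when AOM/DSS is subtracted from curcumin.

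Car2 and Car4 together summed to 1931 to 2186 FPKM in controls, 749 to 1123 in AOM/DSS and 1823 to 2482 with curcumin. Their ratio, Car2 over Car4, averaged 0.888 ± 0.109 in controls, 0.883 ± 0.204 in AOM/DSS and 0.825 ± 0.272 with curcumin (SD, n = 4 each). The means of the ratio differed by less than the SD within any group. Within groups the genes did not move together: Pearson's r over the 12 libraries was 0.80 for the values and -0.10 for deviations from the group means.

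Car1, a cytosolic enzyme known as a marker of mature colonocytes, varied more from library to library than Car2 and Car4 within controls and within AOM/DSS, and less than Car4 with curcumin. It measured 647, 2422, 1062 and 1272 FPKM in controls, 419, 447, 840.5 and 2204 in AOM/DSS, and 2001, 1567, 1595 and 1474 with curcumin. Control replicate 1 and AOM/DSS replicate 3 were high, the other AOM/DSS libraries included the lowest values, and the groups overlapped. The highest library exceeded the lowest 3.74-fold within controls, 5.27-fold within AOM/DSS and 1.36-fold within curcumin. For Car2 those ratios were 1.19, 1.59 and 1.23, and for Car4 1.19, 1.79 and 1.88.

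The means of Car1 were 1350.5 ± 759.9 FPKM in controls, 978 ± 840.3 in AOM/DSS and 1659 ± 234 with curcumin (SD, n = 4). The log2 difference was -0.65 for AOM/DSS minus control (95% interval -1.69 to 0.39, limma adjusted p = 0.605). For curcumin minus AOM/DSS it was 1.10 (95% interval 0.06 to 2.14, limma adjusted p = 0.311), and for curcumin minus control 0.45 (limma adjusted p = 0.747). Without AOM/DSS replicate 3, the library with low distal Hox genes, the first became -1.16 (limma adjusted p = 0.222) and the second 1.61 (limma adjusted p = 0.0738). Those were the largest of the 12 fits that left out 1 library. Over these fits the first ran from -1.16 to -0.32 and the second from 0.81 to 1.61. In controls and AOM/DSS the Car1 values went with base composition, and with curcumin they did not. In controls the 1 GC-rich library had 647 FPKM and the AT-rich had 1062 to 2422, and in AOM/DSS the GC-rich had 419 and 447 and the AT-rich 840.5 and 2204. With curcumin the GC-rich libraries had 2001 and 1567 FPKM, against 1595 and 1474 in the AT-rich. Curcumin minus AOM/DSS was 2.03 within the GC-rich libraries (limma adjusted p = 0.0578) and 0.17 within the AT-rich (limma adjusted p = 0.96), and the part of base composition in the level of Car1 was not tested.

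Car1 and Car2 are also enzymes of red blood cells. The red blood cell list summed to 86.1 to 474 FPKM in controls, 23.1 to 464 in AOM/DSS and 39.0 to 56.0 with curcumin. In every library its symbols Hbb-b2 and Hbb-bt had the same value, 58.76 FPKM in control replicate 1. Hbb-b1 and Hbb-bs were at 88.9 and 87.8 FPKM there. The sums of the list may therefore count some globin reads more than once. Control replicate 1 had the highest sum of that list, 474 FPKM, and the highest Car1 of all libraries, 2422 FPKM. AOM/DSS replicate 1, with 464 FPKM of the list, had 447 FPKM of Car1 and 417 of Car2. Curcumin replicate 0, with 53.6 FPKM of the list, had 2001 FPKM of Car1. The part of red blood cells in the levels of Car1 and Car2 was not tested.

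**Figure D4:**
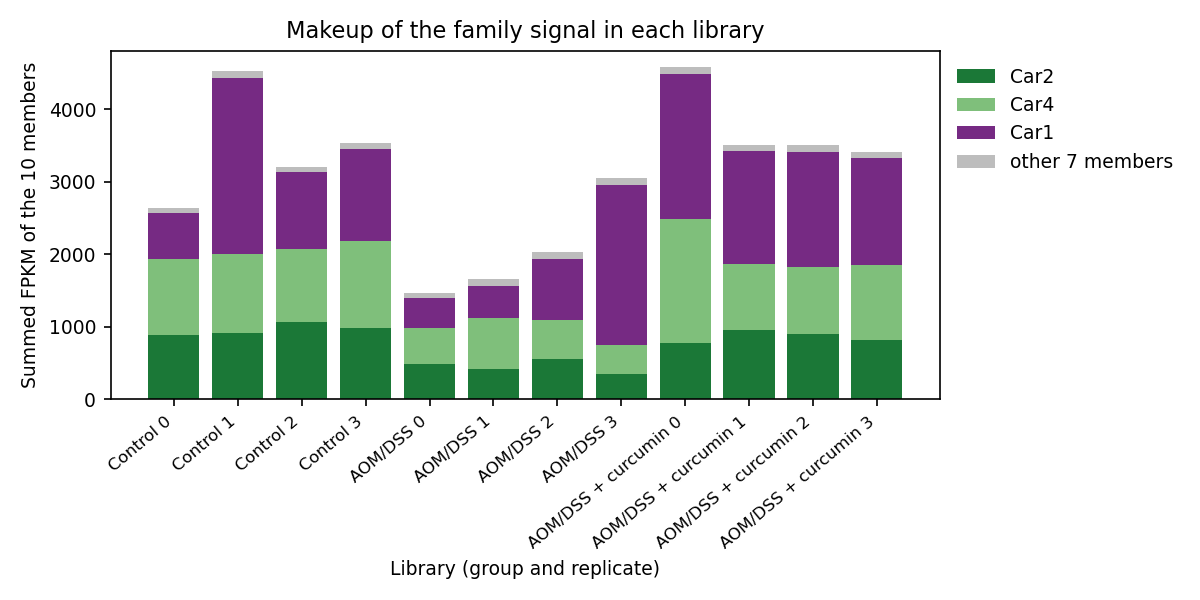
Summed FPKM of the 10 members in each library, stacked as Car2, Car4, Car1 and the other 7 members on an axis from 0. The Car2 and Car4 blocks together reach 749 to 1123 in AOM/DSS and 1823 to 2482 with curcumin, and Car1 fills 72.2% of AOM/DSS replicate 3.

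As a whole the members summed to 3478 ± 796 FPKM in controls, 2056 ± 707 in AOM/DSS and 3753 ± 553 with curcumin (SD, n = 4 each). That was 0.317% to 0.834% of all FPKM in a library. The share held by Car1, Car2 and Car4 was 97.8% to 97.9% of the members' sum in controls, 94.5% to 96.7% in AOM/DSS and 97.3% to 97.9% with curcumin. Car1 alone took 24.6% to 53.4% in controls, 26.9% to 72.2% in AOM/DSS and 43.1% to 45.5% with curcumin. Ranked by FPKM among all genes of its library, Car1 was 3rd in AOM/DSS replicate 3 and 193rd in AOM/DSS replicate 1.

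Among the transmembrane enzymes, Car9 and Car12 acidify the space outside the cell and are induced by low oxygen in many tumours. Car9 measured 37.5, 49.6, 47.2 and 47.7 FPKM in controls, 42.0, 60.9, 49.8 and 58.1 in AOM/DSS, and 65.8, 52.4, 55.01 and 58.1 with curcumin. The AOM/DSS values overlapped both other groups, while every curcumin library lay above every control library. The log2 difference of Car9 was 0.20 for AOM/DSS minus control (95% interval -0.10 to 0.50, limma adjusted p = 0.576) and 0.14 for curcumin minus AOM/DSS (limma adjusted p = 0.711). For curcumin minus control it was 0.34 (SE 0.14, 95% interval 0.04 to 0.64), with an unadjusted limma p of 0.0282 and an adjusted p of 0.351. Car9 was the 1 member whose groups did not overlap there, where 8.26% of tested genes did so, 3.72% with curcumin above and 4.55% with it below.

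Car12 measured 3.58, 22.5, 4.82 and 8.71 FPKM in controls, 9.93, 12.6, 19.6 and 14.9 in AOM/DSS, and 11.1, 7.33, 12.7 and 10.9 with curcumin. Control replicate 1 held the highest value of all, and the other 3 controls lay below every AOM/DSS library. The log2 difference was 0.75 for AOM/DSS minus control (SE 0.40, 95% interval -0.12 to 1.62, limma adjusted p = 0.45). It was 1.22 without control replicate 1 (limma adjusted p = 0.0628). Over the 12 fits that left out 1 library it ran from 0.43 to 1.22 (limma adjusted p of 0.0628 to 0.681). Curcumin minus AOM/DSS was -0.39 (limma adjusted p = 0.724) and curcumin minus control 0.36 (limma adjusted p = 0.76).

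Car14, the remaining transmembrane enzyme, was low and even, at 3.05 to 5.15 FPKM in controls, 2.77 to 4.08 in AOM/DSS and 3.21 to 4.34 with curcumin. It rested on 29 to 117 reads per library. Its log2 differences were -0.16 between AOM/DSS and controls, 0.06 between curcumin and AOM/DSS and -0.10 between curcumin and controls, with limma adjusted p of 0.709, 0.916 and 0.838. The 95% interval between AOM/DSS and controls was -0.49 to 0.18.

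Car13, a cytosolic enzyme and the chromosome 3 neighbour of Car1, measured 10.2, 21.0, 14.3 and 15.1 FPKM in controls, 13.8, 13.0, 23.9 and 19.4 in AOM/DSS, and 14.7, 12.2, 16.3 and 16.6 with curcumin. The groups overlapped, and the log2 differences were 0.20, -0.19 and 0.01 in the same order, with limma adjusted p of 0.737, 0.761 and 0.988. Car8, the acatalytic relative that binds the inositol trisphosphate receptor in neurons, measured 0.764, 3.48, 0.614 and 0.956 FPKM in controls. Its AOM/DSS values were 1.23, 0.926, 1.58 and 4.65 FPKM, and its curcumin values 0.784, 1.06, 1.70 and 1.43. The high Car8 libraries, control replicate 1 and AOM/DSS replicate 3, were the same as for Car1. The log2 differences of Car8 were 0.33, -0.34 and -0.01, with limma adjusted p of 0.737, 0.729 and 0.993. The first was -0.003 without AOM/DSS replicate 3 and 0.67 without control replicate 1.

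**Figure D5:**
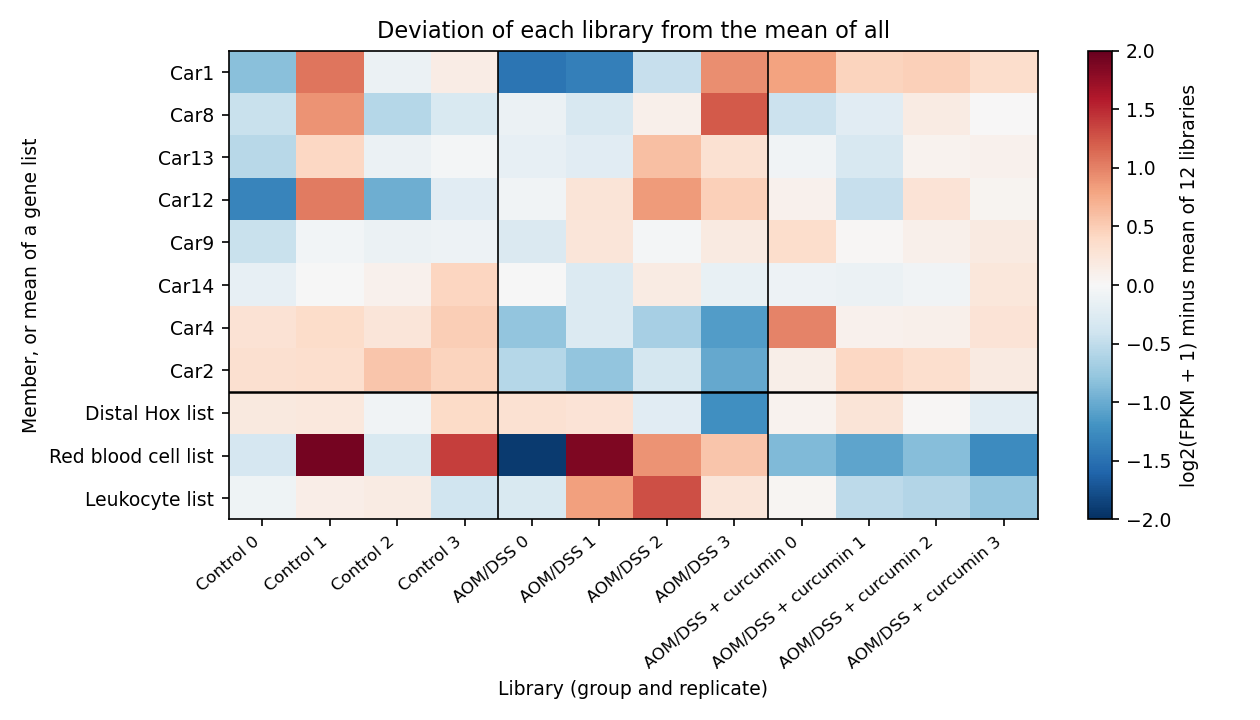
Deviation of log2(FPKM + 1) from the mean over the 12 libraries (colour, red above and blue below) for the 8 tested members and, under the line, for the means of 3 gene lists. Car1 and Car8 are both red in control replicate 1 and AOM/DSS replicate 3, and Car2 and Car4 are blue across the 4 AOM/DSS libraries.

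Some members varied together from library to library. Over deviations from the group means in the 12 libraries, Pearson's r was 0.85 for Car13 with Car12, 0.73 for Car1 with Car13, 0.66 for Car1 with Car12 and 0.85 for Car1 with Car8. Without control replicate 1 and AOM/DSS replicate 3, over 10 libraries, r was 0.84, 0.83, 0.80 and 0.19 for the same pairs. The relation of Car1 with Car8 therefore rested on those libraries, and those among Car1, Car12 and Car13 did not. Between Car1 and Car2, which also lie near each other, r was -0.39 over 12 libraries and 0.52 over 10. The points share library, depth and base composition, and these values are descriptions.

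Car3 and Car7 did not pass the filter. Car3, a cytosolic enzyme of muscle and fat with low activity, measured 0.445, 0.644, 0.938 and 1.16 FPKM in controls, 0.400, 0.226, 0.513 and 0.569 in AOM/DSS, and 1.05, 0.803, 1.05 and 0.670 with curcumin. Its counts were 3 to 26 reads per library. Every curcumin library lay above every AOM/DSS library, and the difference of means was 0.467 FPKM, from 0.427 to 0.894 (exact permutation test, two-sided, p = 0.0286, the smallest that 70 splits allow, 1 of 6 such tests and unadjusted). AOM/DSS minus control was -0.369 FPKM (exact permutation p = 0.0857) and curcumin minus control 0.0977 (exact permutation p = 0.6). With 3 AOM/DSS libraries in place of 4, whichever was left out, the exact permutation p of curcumin against AOM/DSS was 0.0571. The groups still did not overlap in those tests, which have fewer splits. Without control replicate 0, AOM/DSS minus control was -0.486 FPKM (exact permutation p = 0.0286). The adipocyte list summed to 2.69 to 11.5 FPKM in controls, 2.58 to 11.4 in AOM/DSS and 4.16 to 7.73 with curcumin. Of its 7 genes, Plin1, Lep and Retn were at 0 in all 12 libraries and Adipoq and Cfd were at 0.26 FPKM or less. Fabp4 averaged 4.57, 3.92 and 0.682 FPKM in controls, AOM/DSS and curcumin, and Cidec 1.45, 2.46 and 5.23. The skeletal muscle list summed to 2.81 to 3.99, 3.54 to 8.46 and 4.24 to 7.45 FPKM in the same order. Of its 6 genes, Myh4 was at 0, Ckm, Tnnt3 and Tnnc2 were at 0.167 FPKM or less, and Acta1 and Mylpf reached 4.76 and 3.97. Their part in the level of Car3 was not tested.

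Car7, a cytosolic enzyme best known from neurons, measured 0.316 to 0.640 FPKM in controls, 0.243 to 0.378 in AOM/DSS and 0.259 to 0.475 with curcumin, on 6 to 12 reads per library. The groups overlapped, and the exact permutation p was 0.171, 0.343 and 0.571 in the 3 comparisons. No difference passed at this depth. The enteric neuron and glia list summed to 0.935 to 3.00 FPKM. Of 6 further symbols of the family, Car15 measured 1.495 to 3.31 FPKM, with limma adjusted p of 0.475, 0.575 and 0.906, and 65.7% of its exon bases are shared on the same strand with Gm20518. The mitochondrial Car5a and Car5b reached 1.69 and 1.83 FPKM, Car11 reached 0.547, and Car6 and Car10 reached 0.127 and 0.118 FPKM.

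Carbonic anhydrases work beside transporters that move bicarbonate, protons and sodium. Of a list of 21 such genes, 14 were tested. Between AOM/DSS and controls, 2 of the 14 were past the threshold and lower and 0 were past it and higher, with 0.813% and 0.456% of all tested genes so called. By mean log2 level 5 of the 14 were higher, and the list median was -0.17 against 0.02 for all tested genes. An unadjusted limma p under 0.05 was found for 4 of the 14, and for 1622 of all 12052 tested genes. Slc26a3, the apical chloride and bicarbonate exchanger, measured 552.7, 630.1, 534 and 779 FPKM in controls and 185, 249, 299 and 133 in AOM/DSS. The groups did not overlap, and it fell by 1.57 on the log2 scale (SE 0.22, limma adjusted p = 0.00433). Atp12a, the colonic proton and potassium pump, fell by 1.70 (SE 0.33, limma adjusted p = 0.0295), from 314 ± 84.9 to 102 ± 49.0 FPKM (SD, n = 4). Slc9a3, the apical sodium and proton exchanger, had a log2 difference of -0.09 (limma adjusted p = 0.928).

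Between curcumin and AOM/DSS, 1 of those 14 genes was past the threshold and higher and 0 were past it and lower, with 0.73% and 0.348% of all tested genes so called. By mean log2 level 9 of the 14 were higher, and the list median was 0.31 against -0.01 for all tested genes. An unadjusted limma p under 0.05 was found for 6 of the 14, and for 1742 of all 12052 tested genes. The gene past the threshold was Slc26a3, at 588, 507, 589 and 646 FPKM, with a log2 difference of 1.48 (SE 0.22, limma adjusted p = 0.00792). Atp12a had a log2 difference of 1.27 (limma adjusted p = 0.0965) and Slc9a3 one of 0.48 (limma adjusted p = 0.49). Curcumin minus control gave 0 calls in either direction with limma and with limma voom, and a median of -0.03. There 1 of the 14 had an unadjusted limma p under 0.05, against 1468 of all 12052 tested genes. Atp12a lost its AOM/DSS call in 5 of the 12 fits that left out 1 library, those without control replicate 0, 2 or 3 or AOM/DSS replicate 2 or 3.

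The hypoxia response list, the genes known to be induced with Car9, was tested in full. With limma 0 of its 14 genes passed in each of the 3 comparisons, where 1.27%, 1.08% and 0.141% of all tested genes passed. Of the 14, 2, 3 and 2 had an unadjusted limma p under 0.05, against 1622, 1742 and 1468 of all 12052 tested genes. With limma voom on the recovered reads 1 passed, Bnip3, a mitophagy gene that was lower in AOM/DSS and is named after its value was seen. Its log2 difference for AOM/DSS minus control with limma was -1.23 (SE 0.28, limma adjusted p = 0.0539). The list medians were -0.12, -0.03 and -0.17. Vegfa, the vascular growth factor, had log2 differences of -0.18 (limma adjusted p = 0.777) for AOM/DSS minus control and 0.44 (limma adjusted p = 0.408) for curcumin minus AOM/DSS. For Slc2a1, a glucose transporter, they were -0.08 (limma adjusted p = 0.909) and 0.38 (limma adjusted p = 0.465).

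Of the 12 surface colonocyte markers tested, 0 passed with limma between AOM/DSS and controls, nor with limma voom on the recovered reads. The median was -0.15. An unadjusted limma p under 0.05 was found for 2 of the 12, against 1622 of all 12052 tested genes. With limma 1.27% of all tested genes passed there. With curcumin 1 of the 12 rose against AOM/DSS, the water channel Aqp8, from 244 ± 69.8 to 922 ± 271 FPKM (log2 difference 1.92, SE 0.25, limma adjusted p = 0.00341). In that comparison 0.73% of all tested genes were called higher. By mean log2 level, 5 of the 12 were higher in AOM/DSS than in controls, and 10 of the 12 were higher with curcumin than in AOM/DSS. Aqp8 had a log2 difference of -0.99 between AOM/DSS and controls (limma adjusted p = 0.072). Leukocyte markers summed to 14.5 to 52.5 FPKM in controls, 18.7 to 96.3 in AOM/DSS and 9.50 to 33.4 with curcumin, and their part in the differences of Car2 and Car4 was not tested. The small intestine enterocyte list summed to 90.6 to 141 FPKM with curcumin against 43.3 to 81.9 in the other 8 libraries. Most of that difference lay in Rbp2, which averaged 44.5, 29.7 and 91.3 FPKM in controls, AOM/DSS and curcumin. In the same order Fabp6 averaged 16.4, 18.1 and 18.4, Alpi 5.90, 8.29 and 8.94, and Sis 0.0888, 1.91 and 0.106. The AOM/DSS mean of Sis rested on replicate 3, at 7.51 FPKM, and the other AOM/DSS libraries had 0.0692 FPKM or less. Apoa1, Apoa4 and Lct were close to the floor. The part of this list in the differences of Car2 and Car4 was not tested either.

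For the 4 members with a mean of at least 50 FPKM, the genes with the most similar pattern were found by Pearson's r of log2(FPKM + 1) over the 12 libraries among 8437 genes. For Car1 they were Akr1c19 (r = 0.94), Gm10639 (0.88) and Golt1a (0.88). Car2 was followed most closely by Slc26a3 (0.93), Fam134b (0.92) and Capsl (0.92). St3gal4 (0.97), Eno3 (0.96) and Polg2 (0.95) were nearest to Car4, and Bglap3 (0.93), Fdps (0.92) and Pgd (0.92, all r) to Car9. When deviations from the group means were used, 1 of the 12 pairs was found again, Car1 with Golt1a (r = 0.94).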

How the data were processed

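Total RNA of scraped colon epithelial cells was sequenced in 12 libraries. The authors deposited 1 FPKM value per gene and library; the files carry no header, and the unit is per their names. Build mm9 and these tools are listed without their order or role, per the submitters' processing notes: R 3.4.0, DESeq2 1.14.1, featureCounts 1.5.1, Picard, TopHat2 2.1.1 and Bowtie2 2.2.6; filters, annotation and strand setting are not given in the sources used here. Whole reads were recovered from the FPKM steps for all 19233 genes above 0, within 0.001 of a whole number, which gave the depth of 5567988 to 15968416 reads. Genes at 1 FPKM or more in at least 4 libraries (12052) entered the fit by limma (version 3.58.1, R 4.3.3) on log2(FPKM + 1), with 1 mean per group, an intensity trend and Benjamini-Hochberg adjustment over all of them (threshold 0.05); a fold on this scale understates the change of low genes. The script was tested on simulated data. Members below the filter had exact permutation tests. Libraries were split into GC-rich and AT-rich by the sign of the correlation of their deviations with gene GC content. Promoters came from RefSeq tables. All 10 members were named, with list genes past the threshold (at most 4 per list and comparison), Slc26a3, Slc9a3, Atp12a, Vegfa and Slc2a1, and the 3 genes most like each abundant member. The members and lists were chosen with earlier results of these data known. Alternatives were other pseudocounts, filters, scalings, weights, a count-based fit, base composition terms, the replicate block and leaving out each library.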

Additional observations from a re-analysis of the deposited data

Results flagged for a closer look

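In 3 of 30 groups of 4 libraries, 1 value stood apart from the other 3 by a gap that, as a share of the group's whole range, was above Dixon's 95% critical value, which chance passes in about 1 group in 20. Car4 was 1701.67 FPKM in curcumin replicate 0 and 903 to 1037 in the other curcumin libraries. Car14 was 4.33773 FPKM in curcumin replicate 3 and 3.21 to 3.36 in the others. Car8 was 3.47567 FPKM in control replicate 1 and 0.614 to 0.956 in the others.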

How the results depend on the processing

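Across 16 other settings and 12 fits that each left out 1 library, Car2 kept its direction in both called comparisons and lost the call only when either base composition set was fitted alone. For AOM/DSS minus control, 2 members were lower; the count was 1 with no filter, with the replicate block and with the block and GC group together, 0 in either base composition set alone, and 1 to 2 over the left-out libraries, and Car12 was called higher (1 member, 1.32, adjusted p = 0.0367) with the block and GC group. For curcumin minus AOM/DSS, 2 members were higher; the count was 1 with no filter, the block, only the 2 groups compared or the block and GC group, 0 in either set alone, and 1 to 2 over the left-out libraries. With the replicate block the adjusted p of Car4 was 0.0723 and 0.0651, and that of Car2 0.0128 and 0.0268. The labels do not say that the numbers pair the libraries, and not every pair deviated together: of 12 same-numbered pairs 6 had a correlation of deviations over 0.1 (median 0.077, against -0.081 for other numbers), and 4 of 12 libraries correlated best with their own number. In AOM/DSS and curcumin the base composition sets follow the numbers, with 0 and 1 GC-rich. Transporters lower in AOM/DSS numbered 1 with no filter, the block, only the 2 groups or the block and GC group, 0 in either set alone and 1 to 2 over the left-out libraries, and with GC group as a covariate 1 (Slc4a7, named after its value was seen) was higher in AOM/DSS and 1 lower with curcumin. Transporters higher with curcumin numbered 2 with library weights, 0 in either set alone and 1 to 2 over the left-out libraries. Among hypoxia genes 1 (Bnip3) was lower in AOM/DSS with a filter at 5 FPKM, library weights or voom on recovered reads, with 0 to 1 over the left-out libraries, and 1 was higher with curcumin with library weights. The difference of Car3 between curcumin and AOM/DSS was 0.41 on the log2 scale without a filter (limma adjusted p = 0.224) and 0.400 to 0.541 FPKM over the left-out libraries; for AOM/DSS minus control it ran from -0.486 to -0.249 FPKM, and for curcumin minus control from -0.019 to 0.218, while Car7 ran from -0.094 to 0.015 there. Signs turned in 33 of 666 member values, 29 of them in curcumin minus control, none with an adjusted p under 0.551. Car14 was 0.025 for AOM/DSS minus control and 0.058 for curcumin minus control in the GC-rich libraries. For curcumin minus control, Car13 was -0.023 at a common sum and -0.007 in the AT-rich libraries; Car4 was -0.078 with quantile normalization, -0.024 at a common sum, -0.180 with library weights, -0.042 with GC group, -0.004 with the block and GC group, -0.012 with the GC trend removed and -0.179 in the AT-rich libraries. Car8 there was 0.069 and 0.015 with pseudocounts of 0.1 and 0.5, 0.171 with weights, 0.329 with voom, 0.137 with GC group, 0.431 with the block and GC group, 0.077 with the GC trend removed, 0.118 in GC-rich and 0.084 in AT-rich libraries. Over the left-out libraries, Car13 ran from -0.147 to 0.176, Car4 from -0.194 to 0.111, Car14 from -0.184 to 0.017 and Car8 from -0.169 to 0.322 for curcumin minus control, Car8 from -0.003 to 0.666 for AOM/DSS minus control, and Car14 from -0.024 to 0.133 for curcumin minus AOM/DSS. The causes were not tested. Over the fits that left out 1 library, the genes called lower in AOM/DSS than in controls numbered 30 to 122. Over all genes, calls for AOM/DSS minus control were 4 to 98 higher (55 as reported) and 0 to 190 lower (98), for curcumin minus AOM/DSS 0 to 270 higher (88) and 1 to 198 lower (42), and for curcumin minus control 0 to 204 higher (11) and 0 to 287 lower (6). Depth limited Car3 and Car7, at 3 to 26 reads.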

Other observations

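Outside the acid-base genes, Spink4, a secreted product of goblet cells, was higher in AOM/DSS than in controls (log2 difference 1.28, limma adjusted p = 0.014), the 1 of 9 goblet cell markers past the threshold there. Of all tested genes 0.456% were called higher in that comparison. By mean log2 level 8 of the 9 goblet cell markers were higher in AOM/DSS than in controls (median 0.38). With curcumin 6 of the 9 were higher than in AOM/DSS and 9 were higher than in controls (medians 0.055 and 0.66), and 0 passed. In those comparisons 4, 3 and 5 of the 9 had an unadjusted limma p under 0.05. Rbp2, a retinol-binding protein of small intestine enterocytes, was higher with curcumin than in AOM/DSS (log2 difference 1.58, limma adjusted p = 0.00338). It was the 1 of 3 tested genes of its list past the threshold there, where 0.73% of all tested genes were called higher. With limma and with limma voom on the recovered reads 0 of the 9 crypt base and cell cycle markers passed in each comparison. In the order AOM/DSS against controls, curcumin against AOM/DSS and curcumin against controls, 5, 1 and 0 had an unadjusted limma p under 0.05. The list medians were 0.62, -0.50 and 0.34. Among all 12052 tested genes 1622, 1742 and 1468 had an unadjusted limma p under 0.05, and 1.27%, 1.08% and 0.141% passed. The smooth muscle list summed to 7.75 to 23.0 FPKM, the endothelium list to 2.72 to 11.4 and the enteroendocrine and tuft list to 73.6 to 426 over the 12 libraries.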
